A study of Mus musculus with 5 samples.

Results

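The 40 genes described here encode the contractile filaments of heart muscle, the Z disc and M band that hold them in register, and the proteins that store, release and take up calcium. They were chosen as a list of symbols by role, with earlier results of these data known. A probe that carried the symbol alone was present for all 40 of the 40, among 22180 symbols on the array. All 40 lay above the level filter, so each was among the 15294 genes tested. The hearts came from wildtype C57Bl6J mice and were taken at zeitgeber time 12, which counts hours from lights on. Every heart was perfused outside the body on a Langendorff apparatus, kept without flow for 20 min and reperfused for 20 min, so all values describe reperfused tissue. In the antagonist group (n = 3 hearts), mice had received a REV-ERB alpha antagonist at 10 µM by the intraperitoneal route, 4 h and again 1 h before perfusion. The sham group (n = 2 hearts) had the same ischemia and reperfusion but no antagonist. REV-ERB alpha is a repressor of the circadian clock. The sources used here give no compound name, no age or sex of the mice and no vehicle injection in the sham mice.

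In each heartbeat, calcium entering the muscle cell opens ryanodine receptors of the sarcoplasmic reticulum, and the released calcium binds troponin on the thin filament. Tropomyosin then moves and lets myosin heads of the thick filament pull on actin. Relaxation follows when the SERCA pump returns calcium to the reticulum and the sodium-calcium exchanger expels it. Atria and ventricles build the same machine from partly different parts: atrial muscle uses the light chains encoded by Myl4 and Myl7 and restrains its pump with sarcolipin (Sln), whereas ventricular muscle uses Myl2 and Myl3 and relies mainly on phospholamban (Pln).

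The 5 arrays were close in overall level, with medians of 3.92 to 3.95 on the log2 scale and pairwise Pearson correlations across probes of 0.986 to 0.990. Genes that identify heart muscle were present on every array, and the mean log2 value of 10 such markers, 3 of them in the list, was 10.14 to 10.21 in antagonist hearts and 10.13 to 10.25 in sham hearts. Sham replicate 1 stood apart on many genes, and antagonist replicate 2 on a narrower set. Antagonist replicate 2 carried high values of atrial, fat and mesothelial markers, given beside the atrial genes below. Sham replicate 1 lay farther than any other array from the mean of its 4 companions for 33.6% of tested genes and for 19 of the 40 genes described here, or 47.5%. For antagonist replicate 2 this held for 14.5% of tested genes and for 6 of the 40. This count does not set antagonist replicate 2 apart. It was farthest for 2219 tested genes, against 2272 for antagonist replicate 3 and 2838 for sham replicate 2. Values without one of these arrays are given beside the results they move most. With so few arrays, the precision of all comparisons is limited.

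Most genes of the contractile and calcium-handling machinery were measured at nearly the same level in antagonist and sham hearts, and no gene of the list passed the test. With limma, 0 of the 40 reached an adjusted p under 0.05 (background 0% of 15294 genes), and the smallest adjusted p in the list was 0.637. At an unadjusted p under 0.05 there was 1 gene, Tcap, which was lower, against 4.6% of all tested genes in either direction and 2.37% lower. Of the 40, 23 were higher and 16 lower in antagonist hearts and Itpr2 had the same value on all 5 arrays, compared with 47.7% higher and 46.3% lower among all tested genes. The median log2 difference, antagonist minus sham, was 0.02 over the list and 0 over all tested genes. The typical size of a difference was also close, with a median absolute log2 difference of 0.08 in the list and 0.07 over all tested genes. The 95% confidence interval of the difference lay between -1 and 1 on the log2 scale for 37 of the 40 genes. Between -0.5 and 0.5 it lay for 30. The exceptions to the wider bound were Sln, Myl7 and Trdn.

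The spread between the 2 sham hearts was larger than the difference between the groups for 26 of the 40 genes, or 65.0%, and for 58.4% of all tested genes. The values of the 2 groups did not overlap for 9 of the 40 genes, 5 higher and 4 lower in antagonist hearts, against a background of 12.5% of tested genes (6.19% higher and 6.33% lower). Equal values on several arrays are common in this table and can prevent such a gap. Fewer than 5 different values were present for 15 of the 40 genes, compared with 73.9% of all tested genes. The restriction to genes with 5 different values was chosen after the data were seen; among these the groups did not overlap for 8 of 25 genes of the list and for 31% of all such genes. The share in the list was therefore near the background once ties were set aside.

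**Figure D1:**
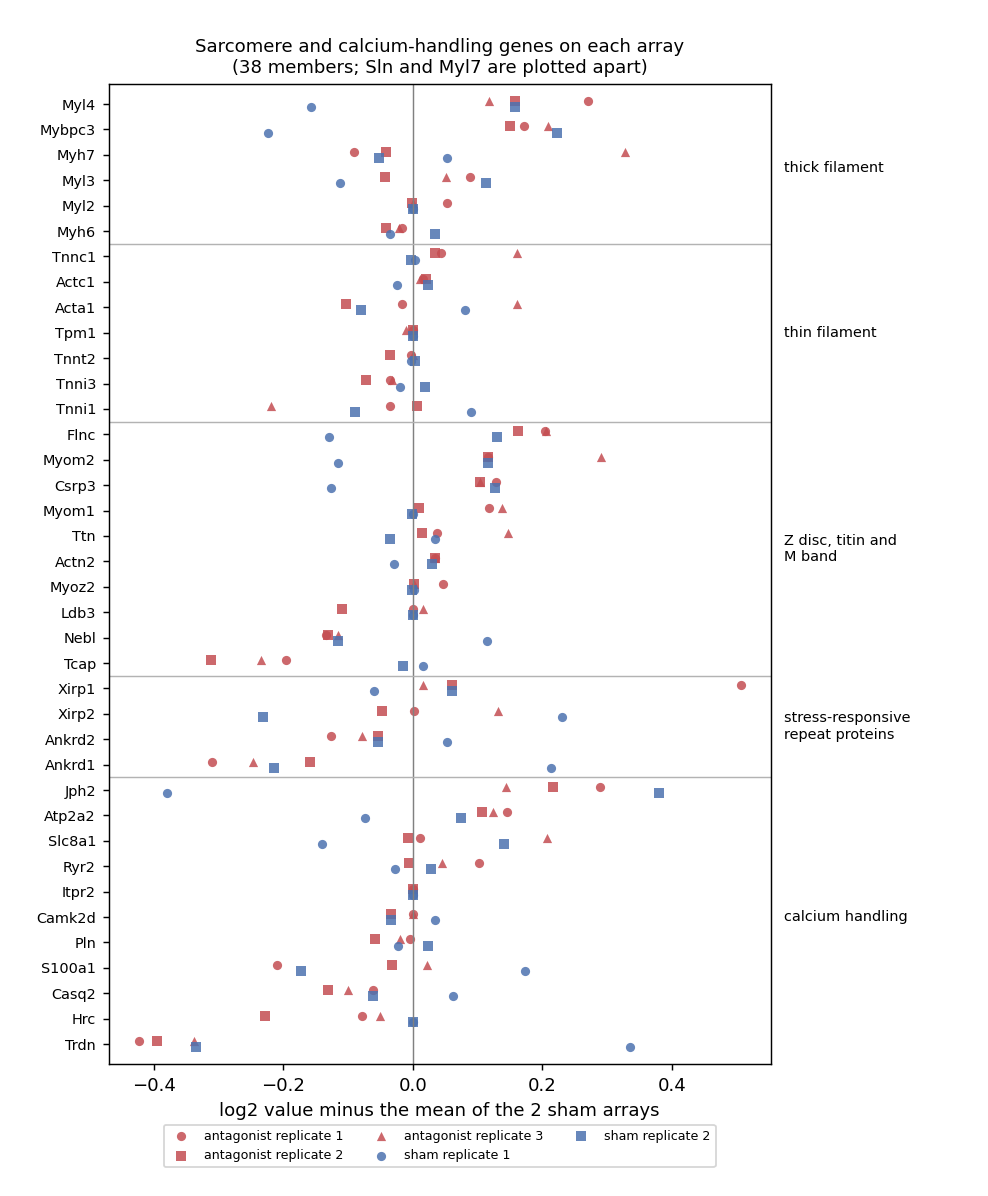
Log2 value of 38 sarcomere and calcium-handling genes on each array, minus the mean of the 2 sham arrays (horizontal axis), with genes grouped by role down the page. Red points are the 3 antagonist arrays and blue points the 2 sham arrays; the sham arrays lie 0.76 apart for Jph2 and 0.67 apart for Trdn, while the antagonist arrays of these genes span 0.14 and 0.09.

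The atrial genes Sln and Myl7 had the largest differences of the list, and these rested on a single array. Myl7, the regulatory light chain of atrial myosin (Entrez Gene 17898), measured 7.01, 9.54 and 6.11 in the antagonist hearts, against 6.67 and 6.94 in the sham hearts. Sln, the small membrane peptide that restrains the SERCA pump in atria (66402), measured 7.66, 10.40 and 6.68 in the antagonist hearts, against 7.31 and 7.46 in the sham hearts. For both genes antagonist replicate 2 was the highest array and antagonist replicate 3 the lowest, with both sham arrays in between, so the groups overlapped. The log2 difference was 0.75 ± 1.20 for Myl7 (SE; 95% interval -2.69 to 4.20) and 0.86 ± 1.30 for Sln (SE; 95% interval -2.87 to 4.59), with limma adjusted p of 0.794 and 0.781. Without antagonist replicate 2 the differences were -0.24 for Myl7 and -0.22 for Sln, so that their direction turned.

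Myl4, the essential light chain of atrial myosin (17896), did not share this pattern. It measured 7.01, 6.89 and 6.85 in the antagonist hearts, against 6.58 and 6.89 in the sham hearts. Antagonist replicate 2 and sham replicate 2 had the same value, and sham replicate 1 was the low array. The difference was 0.18 ± 0.12 (SE), or 0.02 without sham replicate 1. Relative to the mean of the other 4 arrays, antagonist replicate 2 stood 3.13 higher for Sln and 2.86 higher for Myl7, but 0.06 higher for Myl4. Over all 40 genes the median of this distance was -0.03. Antagonist replicate 2 was the highest array for 3 of the 40 genes, Sln, Myl7 and, by a small margin, Actn2, against 14.8% of all tested genes. Its excess in these 2 atrial genes was thus not shared by the list.

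Other atrial markers were high on the same array. The marker lists were chosen with earlier results of these data known, so they are not independent support for the pattern. The mean log2 value of 16 atrial markers outside the list, of which Mybphl is also counted among the related sarcomere genes below, was 7.55 on antagonist replicate 2, 6.47 and 6.31 on the other antagonist arrays, and 6.27 and 6.38 on the sham arrays. Of the 16, 13 had their highest value on antagonist replicate 2. The excess over the other 4 arrays was 5.95 for Bmp10, a growth factor of atrial muscle, and 2.69 for Mybphl, a relative of myosin-binding protein C. It was 1.18 for Nppa, which encodes atrial natriuretic peptide. Bmp10 measured 5.88, 10.86 and 5.57 in the antagonist hearts, against 3.42 and 4.81 in the sham hearts. Without antagonist replicate 2 its difference was 1.61, compared with -0.22 for Mybphl and -0.04 for Nppa. On antagonist replicate 2 the 9 measured adipocyte markers had a median excess of 1.81 and the 8 mesothelial markers one of 0.43. For 8 ventricular markers outside the list the median was -0.02 and none was highest on that array, and for 13 skeletal muscle markers it was 0.04. In whole hearts a larger share of atrial tissue and more RNA per atrial cell cannot be told apart. What part the atrial markers have in the values of Sln and Myl7 was not tested.

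**Figure D2:**
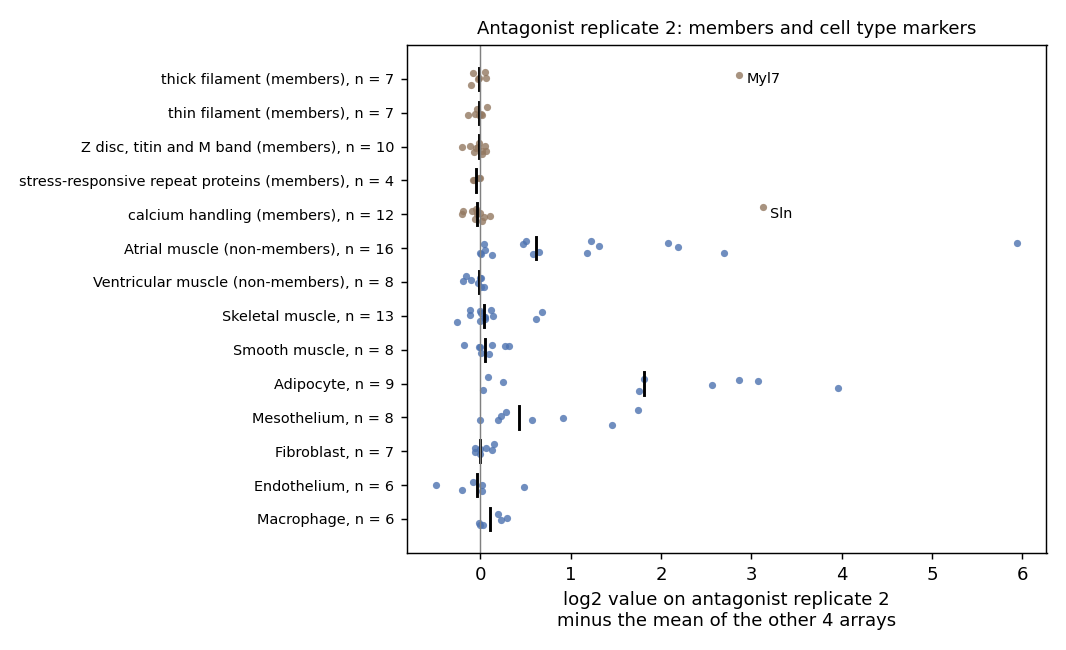
Log2 value on antagonist replicate 2 minus the mean of the other 4 arrays (horizontal axis) for each gene of the 5 role groups of the list (brown points, marked as members) and for markers of other tissues and cell types (blue points), with the median of each group as a black bar. Sln at 3.13 and Myl7 at 2.86 lie far from the other members of their groups, in the range of the atrial and adipocyte markers, whose medians are 0.62 and 1.81.

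The ventricular genes differed little between the groups, but Myl3 and Myh7 varied between arrays. The median range over the antagonist arrays was 0.13 for the 3 ventricular genes and 0.11 for the list. Myl2, the regulatory light chain of ventricular myosin (17906), measured 8.23, 8.17 and 8.18 in the antagonist hearts, against 8.18 and 8.18 in the sham hearts. Its difference was 0.02 ± 0.02 (SE; 95% interval -0.05 to 0.08), and it was -0.01 after a second quantile normalization. Antagonist replicate 3 and both sham arrays had exactly the same Myl2 value, which narrows this interval. Myl3, the ventricular essential light chain (17897), measured 11.037, 10.905 and 10.999 in the antagonist hearts, against 10.836 and 11.061 in the sham hearts. The 2 sham values enclosed all 3 antagonist values, and the difference was 0.03 ± 0.09 (SE). Myh7, the slow beta myosin heavy chain that adult mouse ventricles hold mostly in reserve (140781), measured 6.95, 6.9995 and 7.37 in the antagonist hearts, against 7.09 and 6.99 in the sham hearts. Antagonist replicate 3 was the high array, and the difference of 0.07 ± 0.16 (SE) became -0.07 without it. The median difference was 0.03 over the 3 ventricular genes, 0.75 over the 3 atrial genes and 0.01 over the 34 genes shared by both chambers. Without antagonist replicate 2 these medians were 0.07, -0.22 and 0.01, and without sham replicate 1 they were 0.02, 0.62 and -0.01.

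**Figure D3:**
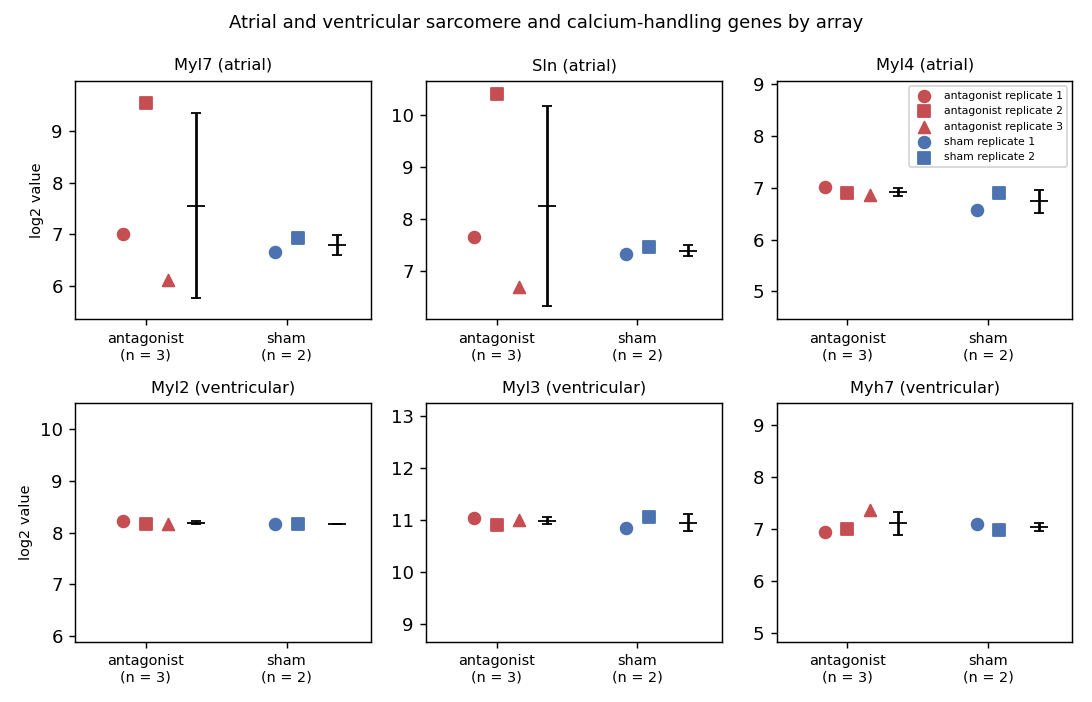
Log2 value of 3 atrial genes (top) and 3 ventricular genes (bottom) on each array, with antagonist hearts in red and sham hearts in blue, and the mean with its SD as a black bar beside each group. The vertical axes all span the same number of log2 units; antagonist replicate 2 stands high for Myl7 and Sln, at 9.54 and 10.40, and antagonist replicate 3 is the highest array for Myh7, at 7.37.

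The start regions of Myl7, whose value on antagonist replicate 2 stood apart, of Myl4, whose value did not, and of Pln, the relative of Sln used in ventricles, are shown because these genes split the atrial pattern. Each is the 250 bases before the 1 transcription start that RefSeq's table lists for the gene (GRCm38.p6), read in the direction of transcription; Sln had no entry. Capitals mark CArG boxes, the binding element of serum response factor, and the letters GATAA of the GATA factor motif, searched on both strands.
Myl7 (chr11:5898783-5899032, minus strand): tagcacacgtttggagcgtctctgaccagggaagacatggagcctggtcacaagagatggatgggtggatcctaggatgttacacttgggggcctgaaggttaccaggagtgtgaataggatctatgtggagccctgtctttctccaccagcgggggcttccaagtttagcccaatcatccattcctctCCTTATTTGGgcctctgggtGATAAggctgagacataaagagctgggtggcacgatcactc
Myl4 (chr11:104550413-104550662, plus strand): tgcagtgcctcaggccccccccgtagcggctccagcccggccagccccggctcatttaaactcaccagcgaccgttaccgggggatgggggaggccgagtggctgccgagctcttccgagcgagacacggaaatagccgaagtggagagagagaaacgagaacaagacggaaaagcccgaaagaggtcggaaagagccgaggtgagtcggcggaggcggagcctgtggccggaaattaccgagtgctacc
Pln (chr10:53337436-53337685, plus strand): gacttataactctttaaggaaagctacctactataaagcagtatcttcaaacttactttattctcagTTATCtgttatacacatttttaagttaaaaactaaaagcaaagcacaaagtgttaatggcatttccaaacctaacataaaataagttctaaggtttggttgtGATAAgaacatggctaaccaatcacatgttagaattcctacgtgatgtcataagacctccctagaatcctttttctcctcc

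The Myl7 region held 1 CArG box, 61 to 52 bases before the start, and 1 GATAA, 41 to 37 bases before it. The Pln region held 2 GATAA matches and no CArG box, and the Myl4 region neither. GATAA occurred in 22.6% of all 32851 regions of this length and a CArG box in 1.47%. The letters AGGTCA, the core letters bound by REV-ERB and related receptors, were in none of the 3 regions and in 14% of all regions. The E-box pattern CANNTG had 1 match in Myl7 and 1 in Pln, none in Myl4, and in 66.2% of all regions. These matches describe letters in a window and not bound sites.

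CArG boxes were a feature that several genes of the list shared. Of the 34 genes with at least 1 start region in the table, 7 held one (20.6%), compared with 1.62% of the 27025 genes in the table; some genes have several regions. The 7 stretches are given because they place the same element before genes of the thick filament, the thin filament and the Z disc, with the CArG box in capitals and 10 bases on each side (RefSeq, GRCm38.p6).
Myl3 (chr9:110763583-110763612, plus strand): gagccaatgcCCTTTTATGGccctgtccct
Myl7 (chr11:5898824-5898853, minus strand): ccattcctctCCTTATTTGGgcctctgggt
Actc1 (chr2:114052903-114052932, minus strand): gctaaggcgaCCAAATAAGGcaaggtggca
Acta1 (chr8:123894829-123894858, minus strand): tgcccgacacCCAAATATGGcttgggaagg
Ldb3 (chr14:34588697-34588726, minus strand): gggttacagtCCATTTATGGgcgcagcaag
Myom1 (chr17:71019448-71019477, plus strand): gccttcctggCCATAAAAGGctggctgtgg
Nebl (chr2:17462999-17463028, minus strand): gctcccatctCCTAAATTGGctggaaatgc

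The 7 genes with a CArG box did not differ in a common direction. In the order above, the log2 differences were 0.03, 0.75, 0.02, 0.01, -0.03, 0.09 and -0.13.

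Among the other thick filament genes the values of Myh6 were close on all arrays. Myh6, the alpha myosin heavy chain that is the main motor of the adult mouse heart (17888), measured 12.34 ± 0.01 in antagonist hearts (SD, n = 3) and 12.37 ± 0.05 in sham hearts (SD, n = 2). Its difference of -0.03 ± 0.03 (SE; 95% interval -0.10 to 0.05) became 0.01 after a second quantile normalization. Mybpc3, the myosin-binding protein C that sets the order of the heads (17868), measured 11.24 to 11.30 in antagonist hearts, against 10.87 and 11.31 in sham hearts. Sham replicate 1 was the low array, and the difference of 0.18 ± 0.15 (SE) became -0.05 without it. In the thick filament group 6 of 7 genes were higher and 1 lower, with a median of 0.07. Without sham replicate 1 it had 4 higher and 3 lower with a median of 0.02, and without antagonist replicate 2 it had 5 higher and 2 lower with a median of 0.07.

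Thin filament genes had the smallest median absolute difference of the 5 role groups, 0.02. Their 7 differences lay between -0.08 and 0.08, with 3 higher and 4 lower in antagonist hearts. Tnnc1, the calcium-binding troponin C of heart and slow muscle (21924), measured 11.41, 11.40 and 11.53 in the antagonist hearts, against 11.37 and 11.37 in the sham hearts. Every antagonist array lay above both sham arrays, antagonist replicate 3 by the most, and the difference was 0.08 ± 0.05 (SE; 95% interval -0.06 to 0.22), or 0.04 without that array. Tnni3, the inhibitory cardiac troponin I (21954), measured 12.089, 12.051 and 12.091 in the antagonist hearts, against 12.104 and 12.143 in the sham hearts. The antagonist arrays were all below the sham arrays in the deposited values, by a difference of -0.05 ± 0.02 (SE), but the difference was 0.04 after a second quantile normalization. A direction for Tnni3 therefore depends on the scaling.

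The other thin filament genes showed the same narrow range. Tnnt2, which anchors troponin to tropomyosin (21956), differed by -0.01 ± 0.02 (SE), or 0.03 after a second quantile normalization. Tpm1, which encodes alpha-tropomyosin (22003), differed by -0.0035, with 4 of its 5 values equal. Actc1, the cardiac alpha-actin (11464), differed by 0.02 ± 0.02. Of the forms linked to fetal and stressed hearts, the skeletal alpha-actin gene Acta1 (11459) differed by 0.01 ± 0.11 and the slow skeletal troponin I gene Tnni1 (21952) by -0.08 ± 0.10. Acta1 turned to -0.07 without sham replicate 2 and Tnni1 to 0.01 without sham replicate 1. The values of Tnni1 were low, at 4.36 to 4.67. Actin genes, and the heavy chains Myh6 and Myh7, are close relatives in sequence, and whether their probes share signal was not tested.

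The Z disc, titin and M band group held the gene with the smallest p of the list. Tcap, which encodes telethonin, the cap that joins titin molecules at the Z disc (21393), measured 10.75, 10.64 and 10.71 in the antagonist hearts, against 10.96 and 10.93 in the sham hearts. Every antagonist heart was below both sham hearts, and the gap between the groups was wider than the range within either. Tcap averaged 10.70 ± 0.06 in antagonist hearts (SD, n = 3) and 10.95 ± 0.02 in sham hearts (SD, n = 2). The difference was -0.25 ± 0.04 on the log2 scale (SE; 95% interval -0.37 to -0.13), or 0.842-fold. Its unadjusted limma p was 0.0055 and its adjusted p over all genes 0.637, so it did not pass. Its exact permutation p (two-sided) was 0.10, the smallest that 3 against 2 arrays allow. Other genes of the list reached that value too, so it does not set Tcap apart. The difference lay between -0.22 and -0.27 with any single array left out, so its size did not rest on one heart.

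Flnc and the M band genes Myom1 and Myom2 lay on the other side of 0. Flnc, which encodes filamin C, an actin crosslinker at Z discs (68794), measured 8.56, 8.52 and 8.56 in the antagonist hearts, against 8.23 and 8.49 in the sham hearts. All antagonist arrays were higher, but sham replicate 1 was far below the other 4 arrays, and the difference of 0.19 ± 0.09 (SE) was 0.06 without it. Myom1, the M band protein myomesin that ties thick filaments together (17929), measured 11.05, 10.94 and 11.07 in the antagonist hearts, against 10.93 and 10.93 in the sham hearts. The groups did not overlap, antagonist replicate 2 lay close to the sham arrays, and the difference was 0.09 ± 0.05 (SE). Myom2, a further myomesin (17930), differed by 0.17 ± 0.10, or 0.06 without sham replicate 1.

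Actn2, the alpha-actinin that crosslinks actin in the Z disc (11472), measured 11.713, 11.714 and 11.713 in the antagonist hearts, against 11.651 and 11.708 in the sham hearts. The groups did not overlap, yet sham replicate 2 lay just below the antagonist arrays. The difference was 0.03 ± 0.02 (SE), or 0.01 without sham replicate 1. Ttn, the giant spring protein titin (22138), differed by 0.07 ± 0.05, or 0.03 without antagonist replicate 3. Csrp3, the muscle LIM protein of the Z disc (13009), differed by 0.11 ± 0.09, or -0.01 without sham replicate 1. Nebl, the nebulin relative nebulette (74103), differed by -0.13 ± 0.08, or -0.01 without sham replicate 1. Myoz2, a calcineurin-binding Z disc protein (59006), differed by 0.02 ± 0.02, or -0.02 after a second quantile normalization. Ldb3, the PDZ-LIM protein ZASP (24131), differed by -0.03 ± 0.05, or 0.01 without antagonist replicate 2. In this group 7 of 10 genes were higher and 3 lower, with a median difference of 0.05. Without sham replicate 1 there were 6 higher and 4 lower, with a median of 0.01.

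The 4 stress-responsive repeat proteins had no common direction. Ankrd1, a titin-binding ankyrin repeat protein induced by stretch and injury (107765), measured 12.12, 12.27 and 12.18 in the antagonist hearts, against 12.64 and 12.21 in the sham hearts. Sham replicate 1 was the high array and sham replicate 2 lay among the antagonist values, and the difference of -0.24 ± 0.15 (SE) was -0.03 without sham replicate 1. Ankrd2, its relative of slow skeletal muscle (56642), differed by -0.09 ± 0.04, or -0.03 without sham replicate 1. The values of Ankrd2 were low, at 4.43 to 4.61. Xirp1, an actin-binding Xin repeat protein of the intercalated disc (22437), differed by 0.19 ± 0.19, with antagonist replicate 1 at 9.55 and the other arrays at 8.99 to 9.11, and by 0.04 without antagonist replicate 1. Xirp2, the other Xin repeat protein (241431), differed by 0.03 ± 0.17, with sham replicates 1 and 2 at 10.55 and 10.08 on either side of the antagonist values. Its difference was 0.26 without sham replicate 1 and -0.20 without sham replicate 2. It was the only gene of the list with a second probe, and that probe gave 0.23. The second probe lay far lower, however, at 4.90, 4.19 and 4.38 in antagonist hearts and 3.97 and 4.56 in sham hearts. Its groups overlapped.

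Calcium-handling genes split between higher and lower, 5 against 6, with a median of -0.0055. Atp2a2, the SERCA2 pump that refills the sarcoplasmic reticulum (11938), measured 12.68, 12.64 and 12.66 in the antagonist hearts, against 12.46 and 12.61 in the sham hearts. All antagonist hearts were higher, with sham replicate 2 just below them, and the difference was 0.12 ± 0.05 (SE; 95% interval -0.03 to 0.28), or 0.05 without sham replicate 1. Pln, the phospholamban that restrains this pump (18821), measured 12.37 to 12.43 in antagonist hearts and 12.41 and 12.45 in sham hearts. Its difference of -0.03 ± 0.03 (SE) became 0.03 after a second quantile normalization. The other sarcoplasmic pump inhibitor, Sln, is described with the atrial genes.

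Of the 40 genes, Jph2 and Trdn of the calcium release complex differed most between the 2 sham hearts. Trdn, which encodes triadin, the anchor of calsequestrin at the release channel (76757), measured 9.106, 9.134 and 9.191 in the antagonist hearts, against 9.864 and 9.194 in the sham hearts. The groups did not overlap, but sham replicate 2 was barely above the highest antagonist heart, and sham replicate 1 was the single high array. The difference of -0.39 ± 0.23 (SE; 95% interval -1.04 to 0.27) was -0.05 without sham replicate 1 and -0.72 without sham replicate 2. Jph2, junctophilin 2, which holds the reticulum against the surface membrane (59091), measured 8.15, 8.08 and 8.01 in the antagonist hearts, against 7.48 and 8.24 in the sham hearts. The sham values enclosed the antagonist values, with sham replicate 1 the single low array, and the difference of 0.22 ± 0.26 (SE) became -0.16 without it.

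Hrc, the histidine-rich calcium-binding protein of the reticulum (15464), measured 9.43, 9.28 and 9.45 in the antagonist hearts, against 9.50 and 9.50 in the sham hearts. All antagonist hearts were lower, antagonist replicate 2 by the most, and the difference of -0.12 ± 0.06 (SE) was -0.07 without antagonist replicate 2. Casq2, calsequestrin, the main calcium buffer of the store (12373), differed by -0.10 ± 0.05, or -0.04 without sham replicate 1. Ryr2, the release channel itself (20191), differed by 0.05 ± 0.04, or 0.02 without sham replicate 1, and Itpr2, an inositol trisphosphate receptor (16439), was 7.10 on every array.

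Slc8a1, the sodium-calcium exchanger (20541), differed by 0.07 ± 0.12 (SE), or -0.07 without sham replicate 1. S100a1, a calcium sensor that modulates Ryr2 and SERCA (20193), differed by -0.07 ± 0.14, or 0.10 without sham replicate 1. Camk2d, the main cardiac calcium/calmodulin-dependent kinase (108058), differed by -0.01 ± 0.03, or 0.02 without sham replicate 1. Triadin, histidine-rich protein and calsequestrin, which lie together at the store, were each lower on the mean, and junctophilin 2, the release channel and the exchanger higher, but 0 of these 6 passed the test and 2 turned sign without sham replicate 1.

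**Figure D4:**
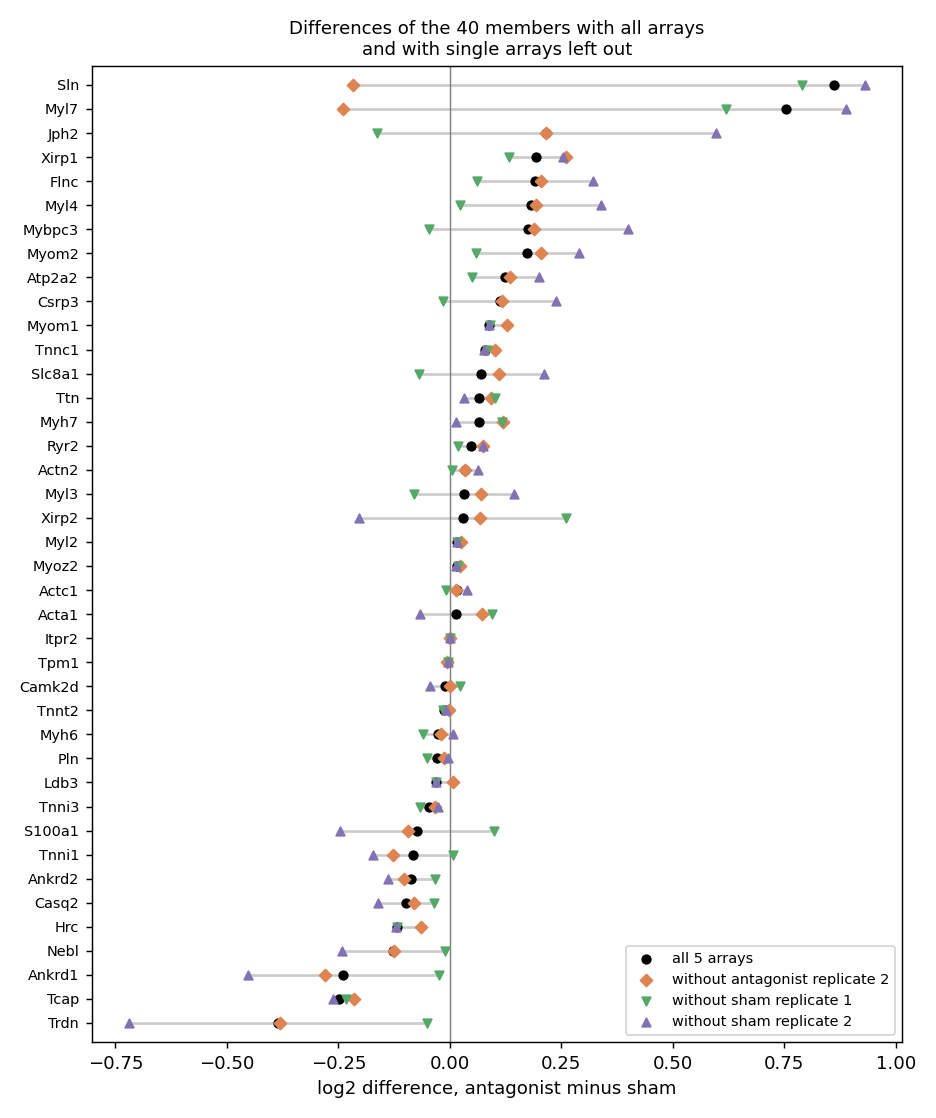
Log2 difference, antagonist minus sham, of each of the 40 genes with all 5 arrays (black) and with antagonist replicate 2, sham replicate 1 or sham replicate 2 left out (horizontal axis, genes sorted by the difference down the page). Sln and Myl7 turn sign without antagonist replicate 2, at -0.22 and -0.24, while Tcap stays between -0.22 and -0.26 with each of these left out; without sham replicate 1 the differences of Trdn and Ankrd1 shrink to -0.05 and -0.03.

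Leaving out single hearts changed several of these values. Without antagonist replicate 2 the counts were 23 higher and 16 lower, and 4 of 40 genes turned sign, against 6.04% of all tested genes. Without sham replicate 1 they were 20 higher and 19 lower, and 9 of 40 turned sign, against 14.7% of all tested genes. Sham replicate 1 was the lowest array for 13 of the 40 genes and the highest for 11, against 25.9% and 22.3% of all tested genes. Without sham replicate 2, where sham replicate 1 alone stands for the sham group and is assumed to vary like the antagonist hearts, limma called 7 of the 40 genes (background 13.5%). These were Mybpc3, Csrp3, Flnc, Actn2 and Atp2a2, higher, and Nebl and Trdn, lower. Without sham replicate 1 it called 0 of the 40 (smallest adjusted p 0.212), while 8.62% of all tested genes were called, and without antagonist replicate 2 it called 0 of the 40 and 0% of all tested genes.

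Related genes outside the list were listed by role. Of 51 further sarcomere genes, 47 were tested, 28 higher and 18 lower with a median difference of 0.01, beside 47.7% higher and 46.3% lower among all tested genes. Without sham replicate 1 they were 20 higher and 26 lower, with a median of -0.01. With limma 0 passed the adjusted threshold and 4 had an unadjusted p under 0.05, against 4.6% of all tested genes. Lmod3, a leiomodin that lengthens thin filaments, measured 7.84, 7.56 and 7.39 in the antagonist hearts, against 8.39 and 8.12 in the sham hearts. Every antagonist heart was lower, by a difference of -0.66 ± 0.18 (SE), or -0.53 without sham replicate 1. Unc45b, a myosin chaperone, measured 8.45, 8.31 and 8.30 in the antagonist hearts, against 7.73 and 8.09 in the sham hearts, a difference of 0.44 ± 0.14 (SE), or 0.26 without sham replicate 1, the lowest array. Mypn, the Z disc protein myopalladin, differed by 0.14 ± 0.04 and Myom3, a relative of the myomesins, by 0.16 ± 0.03. Myom3 lay near the array medians, at 4.12 to 4.21 in antagonist hearts and 3.99 and 4.02 in sham hearts. The limma adjusted p was 0.637 for each of these 4 genes. Their groups did not overlap, which a choice by small p favours. Among the 47 tested genes the groups did not overlap for 9, or 19.1%. The background was 12.5% of all tested genes and 31% of those with 5 different values. Of the 47, 18 had fewer than 5 different values, so the 31% is not a like share.

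Of 51 further calcium genes, 42 were tested, 18 higher and 23 lower with a median difference of -0.01. Without sham replicate 1 there were 22 higher and 19 lower. With limma 0 passed the adjusted threshold and 1 had an unadjusted p under 0.05, against 4.6% of all tested genes. Micu2, which gates the mitochondrial calcium uniporter, measured 8.06, 7.89 and 8.03 in the antagonist hearts, against 8.21 and 8.19 in the sham hearts. All antagonist hearts were lower, by a difference of -0.20 ± 0.06 (SE; limma adjusted p = 0.637). The 3 genes of next smallest p were Saraf, an inhibitor of store-operated calcium entry, at 0.31 ± 0.11 (0.16 without sham replicate 1, and 0.16 by its second probe), Ppp1cb, a catalytic subunit of protein phosphatase 1, at 0.05 ± 0.02 (0.35 by its second probe), and Camk2g, a further calcium/calmodulin-dependent kinase, at -0.10 ± 0.05. The second probes lay far lower than the first, at 4.81 to 5.29 for Saraf and 4.19 to 5.64 for Ppp1cb, and their groups overlapped. None of these 3 genes passed.

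In 7 genes of the list, Myh6, Tnnt2, Tnni3, Actc1, Ankrd1, Atp2a2 and Pln, the mean over the arrays was at least 12, near the highest value on any array of 13.08 to 13.14. Whether probes this bright still respond in proportion to RNA was not tested.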

How the data were processed

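Affymetrix whole-transcript arrays measured RNA of 5 hearts, from 300 ng of total RNA per the labels' protocols. The deposited values are log2 expression values made with RMA, per the submitters' processing notes, with no version or probe set library stated there. Of 41345 probes, 23521 had 1 symbol in the platform annotation, 1814 had several and 16010 were not listed. The brightest probe on average stood for each of 22180 symbols, and a gene was tested if its mean reached 3.42, the 40th percentile over probes, which left 15294. limma 3.58.1 (R 4.3.3; lmFit, eBayes) compared antagonist with sham in a model without covariates, and p-values were adjusted by Benjamini and Hochberg's method across the tested genes, with 0.05 as threshold. Intervals at 95% use limma's moderated error. Exact permutation tests ran over all 10 ways to divide the arrays into 3 and 2. The script was tested on simulated data. The labels call the hearts biological replicates. All 40 genes are named, with values on every array for those whose groups do not overlap, whose difference is at least 0.2 or on which an array lies at least 0.5 from the others, and for atrial and ventricular genes. Among 102 related genes, those with an unadjusted p under 0.05 or the 4 of smallest p in a list are named. The genes and lists were chosen with earlier results of these data known. Alternatives covered the level filter, normalization, probe choice, eBayes settings, array weights, a replicate block and leaving out each array. Motifs were searched in RefSeq start regions.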

Additional observations from a re-analysis of the deposited data

How the results depend on the processing

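No gene passed limma's adjusted threshold in the main comparison or in any alternative that used all 5 arrays; leaving out single arrays gave 0 to 2058 genes called, 0 to 7 of them in the list, all 7 without sham replicate 2. Under the other level filters, centring on the median, averaging of probes, eBayes with trend or robust, and array weights, 0 of the 40 genes changed sign. Over all alternatives 21 of the 40 changed sign at least once and 19 did not, Itpr2 at 0 counted among the 19. A second quantile normalization, which moved the median of all genes by -0.0018, turned Myh6 to 0.0090, Myl2 to -0.013, Tnnt2 to 0.029, Tnni3 to 0.038, Myoz2 to -0.018 and Pln to 0.034. The replicate block, possible for replicates 1 and 2 alone, turned Myh7 to -0.066, Acta1 to -0.059 and Xirp2 to -0.023, called 0 genes, and gave 20 genes higher and medians of 0.0011 for the list, 1.48 for atrial, 0.023 for ventricular and -0.0074 for shared genes; the labels give the numbers no meaning across groups. Leaving out 1 array gave -0.061 to 0.0080 for Myh6, -0.066 to 0.14 for Myh7, -0.00080 to 0.026 for Myl2, -0.080 to 0.14 for Myl3, -0.24 to 1.48 for Myl7, -0.047 to 0.40 for Mybpc3, -0.17 to 0.0062 for Tnni1, -0.0084 to 0.039 for Actc1, -0.066 to 0.094 for Acta1, -0.055 to 0.0075 for Ldb3, -0.014 to 0.24 for Csrp3, -0.20 to 0.26 for Xirp2, -0.22 to 1.65 for Sln, -0.069 to 0.21 for Slc8a1, -0.25 to 0.10 for S100a1, -0.045 to 0.023 for Camk2d and -0.16 to 0.60 for Jph2. The causes of these changes were not tested.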

Other observations

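Contractile genes of other muscle types were measured in the same hearts. Of 8 smooth muscle genes, 3 were higher and 5 lower in antagonist hearts, with a median difference of -0.11, and 0 of the 7 above the level filter had an unadjusted limma p under 0.05 (background 4.6% of tested genes). Myh11, the smooth muscle myosin heavy chain, measured 6.73, 6.85 and 6.85 in the antagonist hearts, against 6.95 and 6.89 in the sham hearts. Its groups did not overlap, at a difference of -0.10 ± 0.05 (SE; limma adjusted p = 0.637). Acta2, the smooth muscle actin, measured 8.68, 9.01 and 8.44 in the antagonist hearts, against 8.63 and 9.02 in the sham hearts, and its groups overlapped.

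Of 13 skeletal muscle genes, 8 were higher and 4 lower, with a median difference of 0.05, and 0 of the 9 above the level filter had an unadjusted limma p under 0.05. The fast myosin heavy chains Myh1, Myh2 and Myh4 and the fast light chain Mylpf lay below the level filter. Ckm, the muscle creatine kinase that heart muscle also makes in quantity, measured 10.46, 10.31 and 10.32 in the antagonist hearts, against 9.68 and 10.58 in the sham hearts. Sham replicate 1 was the single low array for Ckm, as it was for Jph2, Mybpc3 and Flnc.

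Ventricular markers outside the list were lower in antagonist hearts for 6 of 8 genes, against 46.3% of all tested genes, with a median difference of -0.12. Of the 6, Kcnip2 and Kcnj2 turned to 0.14 and 0.07 without sham replicate 2, and Lbh became -0.04. The 2 higher genes, Fhl2 and Mylk3, turned to -0.0042 and -0.0165 without sham replicate 1. Both are also counted among the related sarcomere genes. The 3 ventricular genes of the list were each higher, with a median of 0.03. Groups did not overlap for 3 of the 8 markers, against 12.5% of tested genes and 31% of those with 5 different values. These 3 were Irx4 and Hey2, transcription factors of ventricular muscle, and Gja1, which encodes connexin 43. Without sham replicate 2 they differed by -0.19, -0.19 and -0.38. The 31% is not a like share, since Hey2 and Mylk3 had only 3 different values each. None of the 8 passed the adjusted threshold with limma, and 2 of the 8 had an unadjusted p under 0.05, against 4.6% of all tested genes. These markers too were chosen with earlier results of these data known, so their shares are not independent support for a direction.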
